A study of Tribolium castaneum with 2 samples.

Results

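The 4 genes described here encode enzymes of serine, branched-chain amino acid and purine metabolism in *T*. *castaneum*, the red flour beetle. They are phosphoserine aminotransferase (TC000542), branched-chain amino acid aminotransferase (TC000403), ribose-phosphate pyrophosphokinase (TC002990) and amidophosphoribosyltransferase (TC016203), 4 of 17070 reference genes in the deposited files. They were picked by name from a list that the study drew from these same libraries. Their hypoxia and normoxia values were thus used in choosing them, and are given as a description without a test. The names come from that list and were not checked against sequence here.

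The animals were wild type larvae of the last instar, aged 20 days from oviposition. TC2 was the hypoxia/hypercapnia group, held for 12 h with 20 larvae and flour per sealed bottle. The gas supplied to the bottle was 2% O2, 18% CO2 and 80% N2. TC1 was the normoxia control, with 20 larvae and flour per bottle, open to the air through cotton. The study pooled samples within each condition before sequencing, and does not state how many larvae stand behind each library. There was 1 library per condition, so no difference has a replicate check, and the effects of low oxygen, high CO2 and the closed bottle cannot be told apart. The sample labels distinguish the libraries only as TC1 and TC2, and a supplementary legend of the study says which is which.

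Phosphoserine aminotransferase acts in the pathway that makes serine from phosphoglycerate, an intermediate of glycolysis, and takes its amino group from glutamate. Ribose-phosphate pyrophosphokinase joins ribose phosphate and ATP into phosphoribosyl pyrophosphate, and amidophosphoribosyltransferase uses that product with glutamine in the committed step of purine synthesis. Serine also yields glycine and one-carbon units, which go into the purine ring. Branched-chain amino acid aminotransferase exchanges amino groups between leucine, isoleucine or valine and their keto acids. The reaction is reversible, and since animals take up these amino acids with the diet, the enzyme is known in animals mainly for starting their breakdown.

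All 4 genes had a higher level in hypoxia than in normoxia, by 1.48-fold to 1.96-fold. The level is in FPKM, fragments scaled by transcript length and by mapped fragments, summed here over the reference and assembled transcripts of a gene. A gene was called higher or lower where its log2 ratio, taken after adding 0.1 FPKM, came to at least 1.5-fold and the Cufflinks confidence intervals of the libraries did not overlap. By this rule 3 of the 4 were called higher, and amidophosphoribosyltransferase stayed just under the fold. Over all 9731 genes that averaged 1 FPKM or more, 7.54% were called higher and 12.1% lower, and of the 1563 genes that averaged 100 FPKM or more, 10.1% were called higher and 7.61% lower. The 4 genes were chosen on this contrast, so nothing is read from their count. The intervals speak for the fragments counted in 1 library and how they were divided among transcripts, and not for the spread between larvae.

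Phosphoserine aminotransferase (TC000542; ChLG2, 12337085 to 12338392, minus strand) had the highest summed level of the 4 genes in either library. It stood at 5167 FPKM (5001 to 5334) in hypoxia and at 2642 FPKM (2547 to 2736) in normoxia, a log2 ratio of 0.97 with a range of 2 standard errors from 0.90 to 1.04. Among the 9731 genes it ranked 28th by level in hypoxia and 86th in normoxia. It held 0.408% of the summed FPKM of the hypoxia library and 0.197% of that of the normoxia library.

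Branched-chain amino acid aminotransferase (TC000403; ChLG2, 14509395 to 14511919, minus strand) had a nearly equal ratio of summed levels at a lower level. It stood at 769.7 FPKM (739 to 801) in hypoxia and at 398 FPKM (378 to 418) in normoxia, a log2 ratio of 0.95 (0.86 to 1.04). It ranked 288th by level in hypoxia and 465th in normoxia. Its log2 ratio differed from that of phosphoserine aminotransferase by 0.02 (-0.10 to 0.13, phosphoserine aminotransferase minus branched-chain aminotransferase), an interval that includes 0. This near equality holds for the sums only. By reference transcripts alone the log2 ratios were 1.42 for phosphoserine aminotransferase and 0.91 for branched-chain aminotransferase. Weighted by transcript length they were 1.09 and 0.95.

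Ribose-phosphate pyrophosphokinase (TC002990; ChLG3, 7123346 to 7127734, minus strand) was the more abundant of the enzymes that lead into purines. It stood at 3542 FPKM (3390 to 3693) in hypoxia and at 2051 FPKM (1960 to 2141) in normoxia, a log2 ratio of 0.79 (0.70 to 0.88). It ranked 58th by level in hypoxia and 115th in normoxia.

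Amidophosphoribosyltransferase (TC016203; ChLG10, 9375008 to 9379941, minus strand) had the lowest summed level and the smallest ratio of summed levels of the 4. It stood at 515 FPKM (491 to 539) in hypoxia and at 347 FPKM (330 to 365) in normoxia, a log2 ratio of 0.57 (0.47 to 0.67). The intervals of the libraries do not overlap, but the difference of 1.48-fold is less than 1.5-fold. With all log2 ratios centred on the median of the 9731 genes, which was -0.10, its ratio was 0.67 and it would be called higher. Its log2 ratio was lower than that of ribose-phosphate pyrophosphokinase by 0.22 (0.09 to 0.35, ribose-phosphate pyrophosphokinase minus amidophosphoribosyltransferase).

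**Figure D1:**
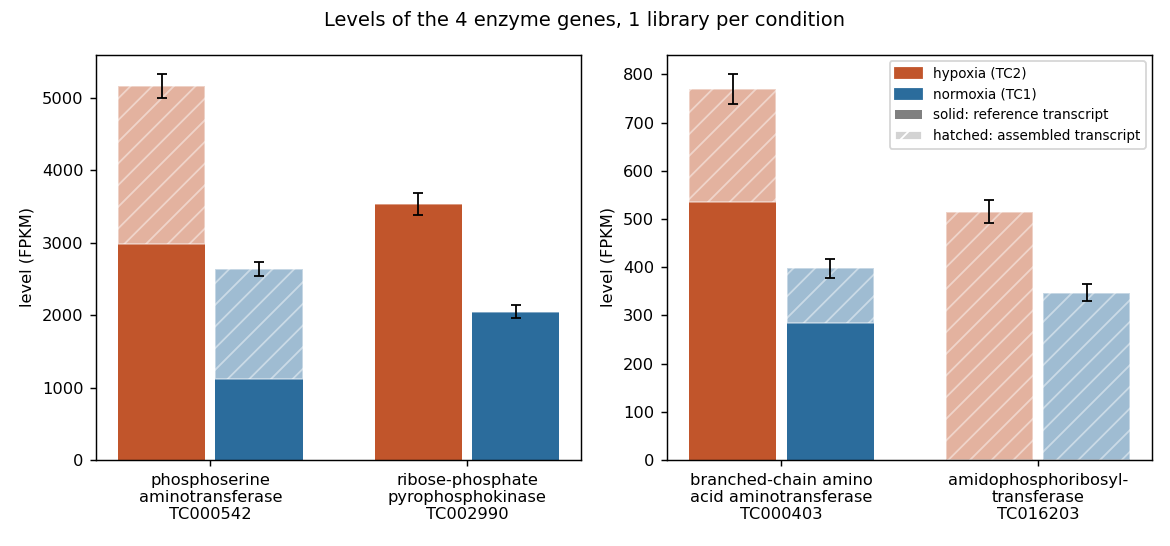
Level in FPKM of each gene in hypoxia (TC2, orange, left) and normoxia (TC1, blue, right), with the reference transcript solid, the assembled transcript hatched and the Cufflinks interval of the sum as error bar. Phosphoserine aminotransferase reaches 5167 FPKM in hypoxia against 2642 FPKM in normoxia, and the intervals are apart for each of the 4 genes.

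The order of the summed levels was the same in both libraries, and the intervals of neighbours in that order did not overlap. In hypoxia, phosphoserine aminotransferase was 1.46-fold above ribose-phosphate pyrophosphokinase, which was 4.60-fold above branched-chain amino acid aminotransferase, which was 1.49-fold above amidophosphoribosyltransferase. The same steps in normoxia were 1.29-fold, 5.15-fold and 1.15-fold. The 2 most abundant genes are thus set apart from the other 2 by the widest step in either library. Their own order depends on the summing. By reference transcripts alone, ribose-phosphate pyrophosphokinase was above phosphoserine aminotransferase in both libraries. The values were 3542 against 2984 FPKM in hypoxia and 2051 against 1117 FPKM in normoxia. The order of the less abundant pair depends on the summing too. The reference transcript of branched-chain amino acid aminotransferase alone was at 285 FPKM in normoxia, below the 347 FPKM of amidophosphoribosyltransferase. In hypoxia it was at 535 FPKM (507 to 563) against 515 FPKM (491 to 539), and these intervals overlap.

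The fragments behind these sums were spread over transcripts in a different way for each gene. The files give a value for each reference transcript and for transcripts that Cufflinks assembled separately in each library. An assembled transcript was counted with the gene when it shared exonic bases with it on the same strand. None of the assembled transcripts of the 4 genes joined a gene to another one. The reference models cover 1107 coding bases in 5 exons for TC000542, 1254 in 6 for TC000403, 1128 in 6 for TC002990 and 1572 in 3 for TC016203. Of all reference models, 97.9% have a length divisible by 3, so they are given as coding lengths without untranslated regions.

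**Figure D2:**
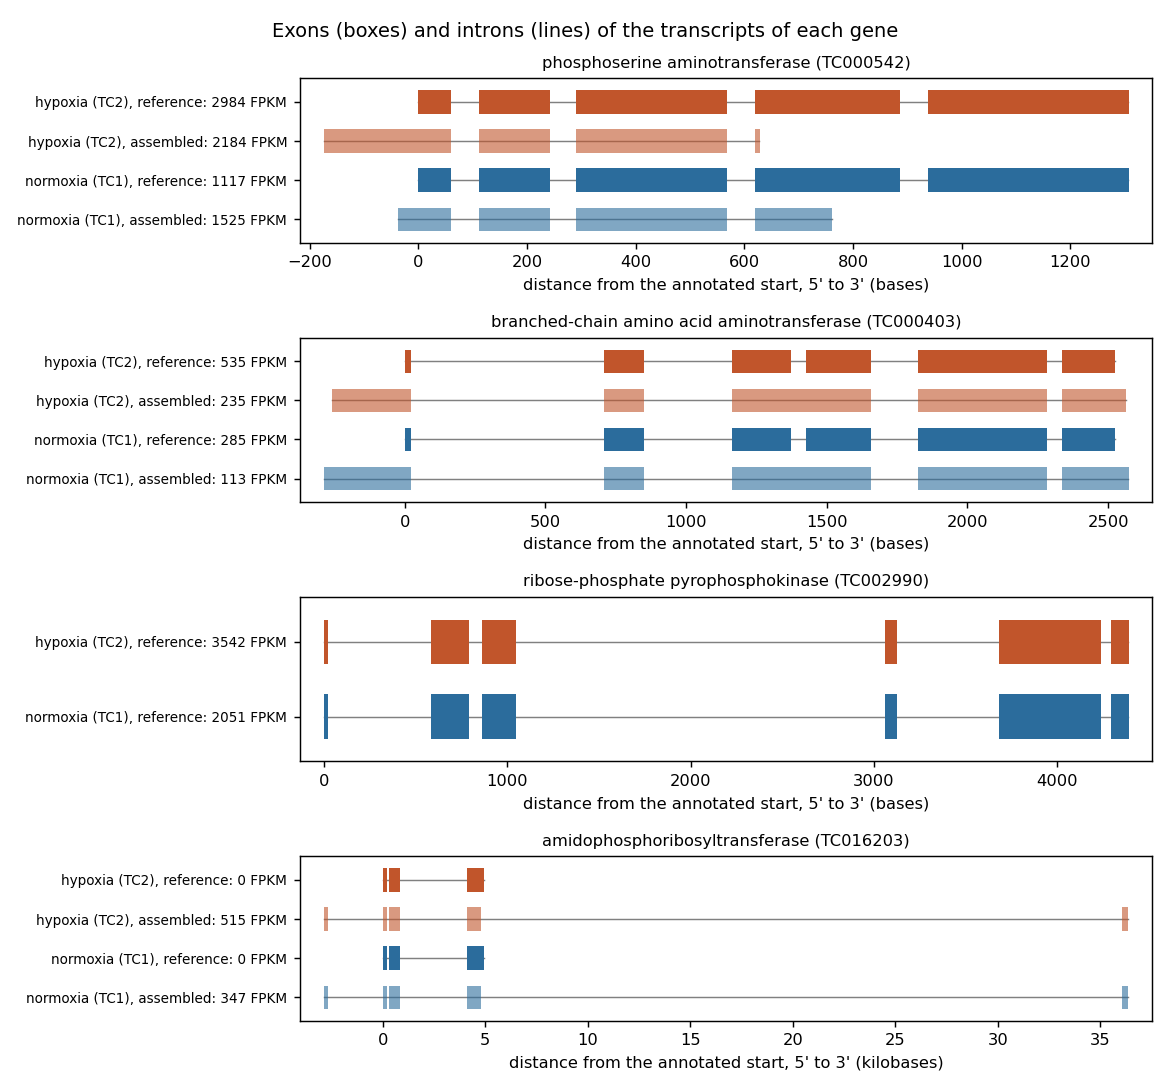
Exons as boxes and introns as lines for every transcript of the 4 genes, hypoxia (TC2) above normoxia (TC1), against distance from the annotated start in bases, or in kilobases for amidophosphoribosyltransferase, with the FPKM of each transcript. The assembled transcripts begin upstream of the annotated start in both libraries, and that of amidophosphoribosyltransferase ends with an exon 31438 bases past the annotated end in hypoxia.

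For phosphoserine aminotransferase the size of the difference depended on the transcript. The reference transcript was at 2984 FPKM in hypoxia and at 1117 FPKM in normoxia, a log2 ratio of 1.42 or 2.67-fold. The assembled transcript was at 2184 FPKM in hypoxia and at 1525 FPKM in normoxia, a log2 ratio of 0.52 or 1.43-fold. The reference transcript thus held 57.7% (56.2 to 59.3%) of the gene's FPKM in hypoxia and 42.3% (40.6 to 44.0%) in normoxia. The assembled transcripts hold the first 3 annotated exons and part of the next, have the same 3 introns in both libraries and end inside the gene, at 12337765 in hypoxia and at 12337631 in normoxia. They start 174 bases upstream of the annotated start in hypoxia and 37 bases upstream in normoxia. They share 478 of 652 bases with the reference transcript in hypoxia and 612 of 649 in normoxia, so which transcript carried the shared fragments cannot be told. Weighted by transcript length, the log2 ratio of the gene was 1.09.

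For branched-chain amino acid aminotransferase both transcripts had a similar ratio. The reference transcript was at 535 FPKM in hypoxia and at 285 FPKM in normoxia, a log2 ratio of 0.91. The assembled transcript was at 235 FPKM in hypoxia and at 113 FPKM in normoxia, a log2 ratio of 1.05. It differs from the reference in 1 intron of 55 bases, from 14510492 to 14510546, which it retains within an exon of 496 bases in both libraries. It also starts upstream of the annotated start by 258 bases in hypoxia and by 287 bases in normoxia. Its share of the gene's FPKM was 30.5% (28.8 to 32.2%) in hypoxia and 28.4% (26.4 to 30.4%) in normoxia, and these ranges overlap.

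Ribose-phosphate pyrophosphokinase had no assembled transcript in either library, and its values are those of its reference transcript alone. This was so for 39.4% of the 9731 genes. The coverage that Cufflinks gives for it was 7206 in hypoxia and 3702 in normoxia. The gene TC003444 on the other strand spans 146 bases of its 5′ part without sharing an exonic base, and is listed at 0 in both libraries. The library kit does not mark strand.

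Amidophosphoribosyltransferase was the reverse case. Its reference transcript is listed at 0 in both libraries, so the whole value came from 1 assembled transcript in each. A reference transcript at 0 in both libraries was found for 1269 of the 9731 genes. The assembled transcripts have 5 exons and the same 4 introns in hypoxia and normoxia. Of these introns, 2 are in the reference model, 1 of 2677 bases leads to an added first exon of 174 bases in hypoxia and 182 bases in normoxia, and 1 of 31265 bases, from 9343865 to 9375129, leads to an added last exon of 295 bases in hypoxia and 294 bases in normoxia. The long intron begins inside the annotated last exon, and 122 of the 1572 reference bases lie outside the assembled transcript in both libraries. Introns at least as long made up 0.891% of those in assembled transcripts in hypoxia and 0.857% in normoxia. The introns of 2677 and 31265 bases are not in the reference models that guided the assembly, and were assembled with the same bounds in each library.

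The nearest reference genes on either side were examined to see whether the neighbourhood of each gene differed as well. Of the 8 neighbours, 3 are listed at 0 in both libraries, 4 were not called and 1 was called higher. The study gives a name to none of them. TC001032 and TC001033, beside phosphoserine aminotransferase, had log2 ratios of -0.84 (-1.48 to -0.20) and -0.08 (-0.18 to 0.03). TC000404 and TC001151, beside branched-chain amino acid aminotransferase, had log2 ratios of -0.15 (-0.44 to 0.13) and -1.65 (-3.94 to 0.64). TC001032 and TC001151 were at under 5 FPKM in both libraries.

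The neighbour called higher, TC016225, lies head to head with amidophosphoribosyltransferase on the plus strand (ChLG10, 9383093 to 9386740). It stood at 1131 FPKM (1090 to 1172) in hypoxia and at 668 FPKM (636 to 701) in normoxia, a log2 ratio of 0.76 (0.67 to 0.85). The annotated starts are 3151 bases apart, but the assembled transcripts of the pair start 54 bases apart in hypoxia. In normoxia TC016225 has no assembled transcript, and its annotated start is 283 bases from that of the assembled amidophosphoribosyltransferase. The direction for TC016225 rests on an assembled transcript of 667 FPKM, found in hypoxia only, since its reference transcript alone was at 465 FPKM in hypoxia and at 668 FPKM in normoxia, a log2 ratio of -0.52. The assembled transcript of amidophosphoribosyltransferase ends 46 bases from TC016224 in hypoxia and 47 bases from it in normoxia, and TC016224 is listed at 0 in both.

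Enzymes of central carbon metabolism, from which the route to serine branches off, were set beside these genes where the study names an identifier for them. No identifier was at hand for the other enzymes of serine, branched-chain amino acid and purine metabolism, which were not analysed here. Of the 7 enzymes, 4 were called higher and 3 lower under hypoxia, against backgrounds of 7.54% and 12.1%, with a median log2 ratio of 0.63. The median of the 4 genes was 0.87 and that of all 9731 genes -0.10. The study chose most of the 7 on these libraries too. Neither the counts nor the medians of the chosen genes are thus independent evidence of a direction.

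Among the listed enzymes of glycolysis itself, hexokinase and enolase were called higher, and pyruvate kinase, at low levels, was called lower. Enolase (TC011730), which acts below phosphoglycerate, was at 92.5 FPKM in hypoxia and at 54.8 FPKM in normoxia, 0.76 higher on the log2 scale (0.60 to 0.92). The enzyme that ends glycolysis, pyruvate kinase (TC006543), was at 0.0783 FPKM in hypoxia and at 2.28 FPKM in normoxia, so that its difference of -3.74 on the log2 scale rests on low levels. Hexokinase (TC000319), which opens glycolysis, was at 769.5 FPKM in hypoxia and at 443 FPKM in normoxia, the enzyme of the 7 with the highest level. L-lactate dehydrogenase (TC003922), which turns pyruvate into lactate, was at 106 FPKM in hypoxia and at 47.0 FPKM in normoxia, the highest ratio of the 7 at 1.17 on the log2 scale. Glycerol-3-phosphate dehydrogenase (TC014609), which links glycolysis to lipid synthesis, was at 74.5 FPKM in hypoxia and at 136 FPKM in normoxia. In the Krebs cycle, citrate synthase (TC014588) was at 1.48 FPKM in hypoxia and at 5.50 FPKM in normoxia. It was called lower, a call that also rests on low levels. Aconitate hydratase (TC010417) was at 187 FPKM in hypoxia and at 121 FPKM in normoxia and was called higher. Glycerol-3-phosphate dehydrogenase was called lower here and aconitate hydratase higher, while the study reports the reverse for both, by RNA-seq and qRT-PCR. The study's RNA-seq folds came from counts of reads mapped to assembled unigenes, and not from summed FPKM. Its qRT-PCR primers are listed for glyceraldehyde-3-phosphate dehydrogenase, and not for glycerol-3-phosphate dehydrogenase. The source of the disagreement over the direction was not tested. By reference transcripts alone hexokinase and L-lactate dehydrogenase had log2 ratios of 0.57 and 0.49 and were no longer called higher, and glycerol-3-phosphate dehydrogenase had -0.46 and was no longer called lower. The summed level of the 4 genes was 9994 FPKM in hypoxia and 5438 FPKM in normoxia, and that of the 7 enzymes was 1231 FPKM in hypoxia and 809 FPKM in normoxia.

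**Figure D3:**
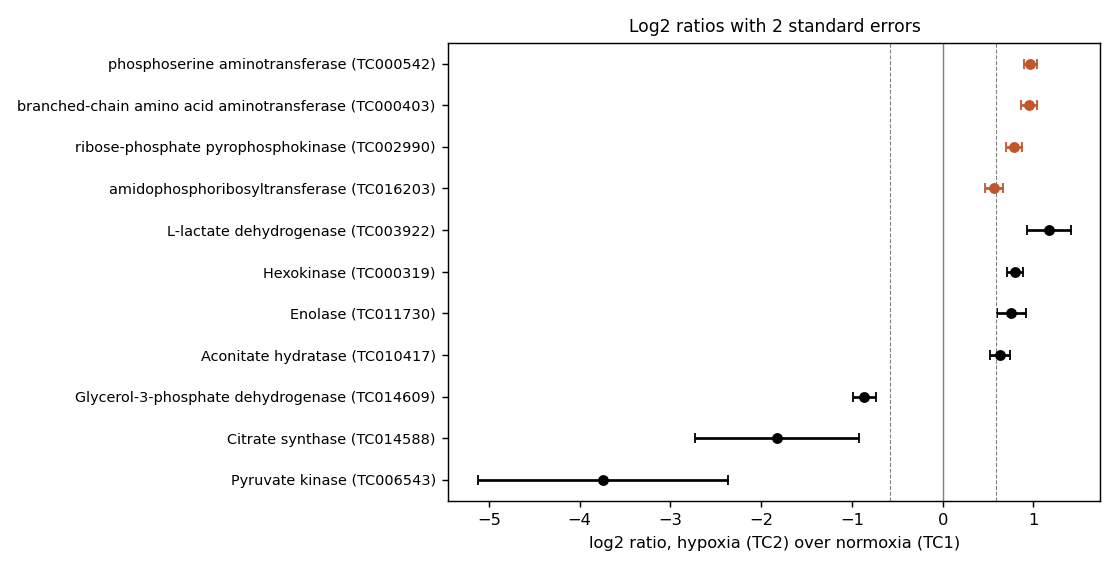
Log2 ratio of hypoxia (TC2) over normoxia (TC1) with a range of 2 standard errors for the 4 genes (orange) and the 7 enzymes of central carbon metabolism (black), with dashed lines at 1.5-fold. The 4 genes, chosen on this contrast, lie between 0.57 and 0.97. The 7 enzymes lie between -3.74, for pyruvate kinase at low levels, and 1.17.

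By level in the 2 libraries, 3 of the 4 genes had a close match among the 69 other genes that the sources name and that pass the filter. Closeness was the Euclidean distance over the log2 levels of both libraries. The study names many of these genes for their difference between the same libraries, so like ratios among the matches are no independent evidence. Genes without a name were not compared, and closer ones may exist. Branched-chain amino acid aminotransferase was nearest to hexokinase (0.16). Its next match (0.19) was TC012437, the NADPH-cytochrome P450 reductase that supplies cytochromes P450 with electrons, at 753 FPKM in hypoxia and 452 FPKM in normoxia. Amidophosphoribosyltransferase was nearest to BNIP3 (TC010884; 0.18), a receptor of mitophagy, at 584 FPKM in hypoxia and 343 FPKM in normoxia. Phosphoserine aminotransferase was nearest to a chemosensory protein gene (TC008682; 0.20), at 5912 FPKM in hypoxia and 2574 FPKM in normoxia. That gene was also the nearest to ribose-phosphate pyrophosphokinase, at a distance of 0.81. The next named gene for these 2, an alpha-amylase (TC000937), was far off at 1.84 and 1.49, and had a negative log2 ratio.

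**Figure D4:**
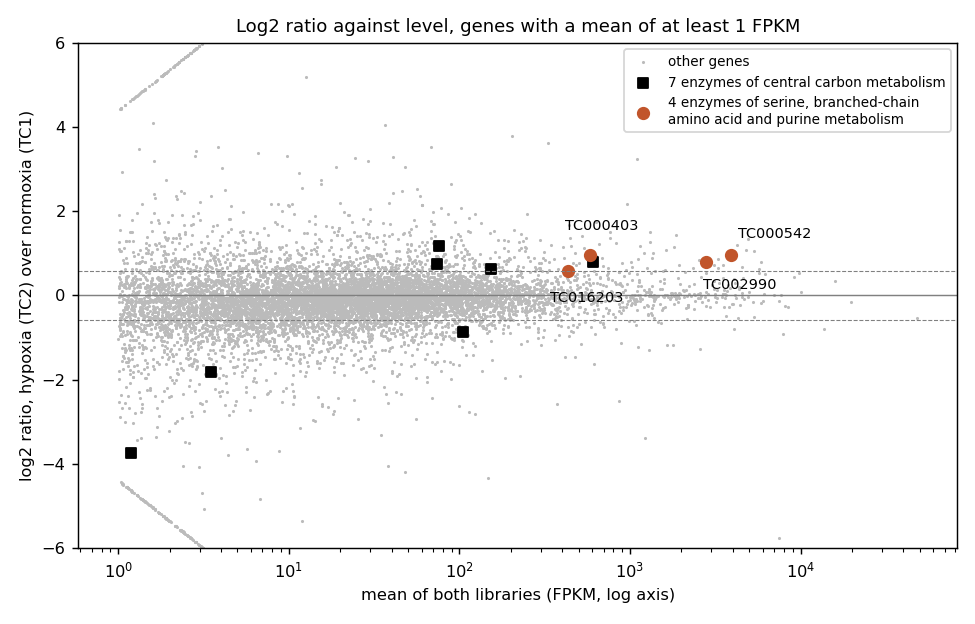
Log2 ratio of hypoxia (TC2) over normoxia (TC1) against mean level in FPKM on a log axis for the 9731 genes that pass the filter, of which 403 lie beyond the axis limits, with dashed lines at 1.5-fold. The 4 genes (orange) lie to the right, at means between 431 and 3905 FPKM, and above 0, with the 7 enzymes of central carbon metabolism (black squares) for comparison.

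Whole larvae hold every tissue, so a smaller part of a tissue and less RNA per cell of it cannot be told apart. The alpha-amylases TC000937, TC000938 and TC000939, digestive enzymes of the gut, summed to 3164 FPKM in hypoxia and to 7469 FPKM in normoxia, and all 3 were called lower, while TC000936 is listed at 0 in both libraries. The cuticle proteins CPAP3-A1 (TC011140) and Obstractor D (TC001350) had log2 ratios of -1.84 and -1.66. The study names the amylases among genes lowered in these same libraries, and the cuticle genes were chosen with earlier results of these data known. The direction of these markers is thus no independent evidence. The part of these marker differences in the ratios of the 4 genes was not tested. The coverage per FPKM was 1.13-fold higher in the hypoxia library, and its summed FPKM was 0.943 of that in normoxia. The interval reached 3.22 to 4.70% to either side of the level for the 4 genes in hypoxia and 3.58 to 5.04% in normoxia. Over genes that averaged 5 FPKM or more, the medians were wider, at 13.1% in hypoxia and 13.3% in normoxia. That set holds genes at far lower levels, and no set of like level was compared.

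**Figure D5:**
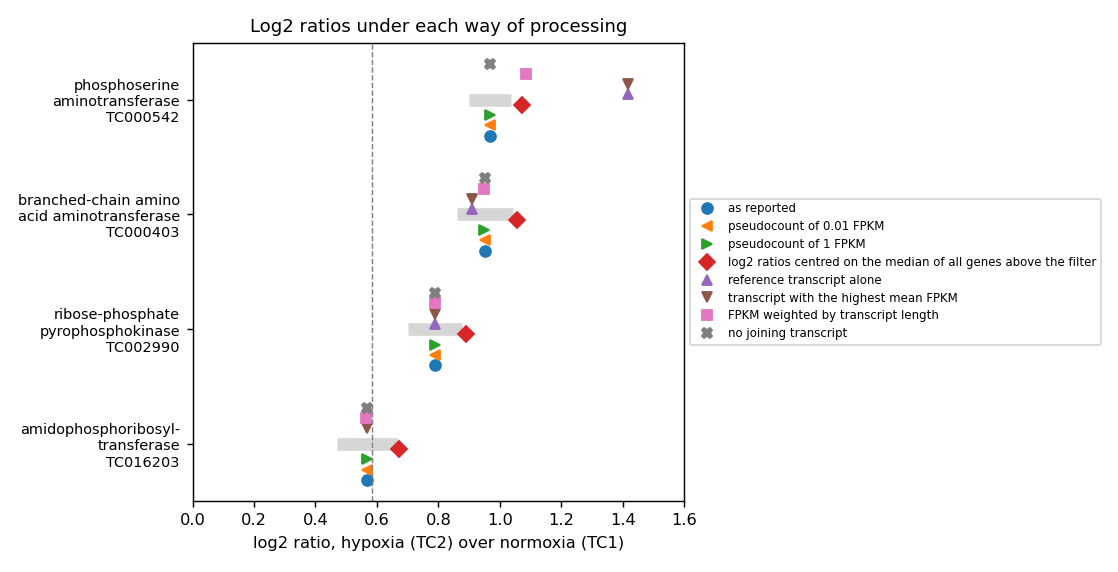
Log2 ratio of hypoxia (TC2) over normoxia (TC1) for each gene under each way of processing, with the range of 2 standard errors of the reported value as a grey band and a dashed line at 1.5-fold. Phosphoserine aminotransferase spreads from 0.97 to 1.42, and amidophosphoribosyltransferase crosses the line only when ratios are centred on the median.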

How the data were processed

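Poly(A) RNA of whole larvae was sequenced in 1 library per condition. The authors trimmed low-quality bases, mapped the reads to the BeetleBase genome and ran Cufflinks with the reference transcripts as a guide. The deposited values are FPKM, a confidence interval and coverage for every transcript. Neither the aligner nor the versions of Cufflinks, genome and annotation could be named (not given in the sources used here). Positions follow the deposited files. The study's count test was not repeated, since the deposited FPKM carry no read counts, and the files show depth only through the coverage, so read totals were not used here.

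Assembled transcripts (7423 in TC2, 7674 in TC1) were given to the reference gene with the most shared exonic bases on their strand, or on either strand where they had none (500 and 502), and 6730 and 6986 found a gene. FPKM were summed per gene, and interval half-widths, as 2 standard errors, were combined in quadrature. Log2 ratios used a pseudocount of 0.1 FPKM, which understates changes of low genes, and only genes averaging 1 FPKM or more were compared. The range given is 2 standard errors. A listed 0 may stand for an estimate that failed.

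Named were the 4 genes, 7 enzymes of central carbon metabolism, the nearest gene on either side, the 2 nearest named genes by level, and markers of gut and cuticle. These members and lists were chosen with earlier results of these data known. Assignment and calls were tested on simulated data. No sequence is printed, as none was matched to these identifiers. Python 3.11.15, numpy 2.4.6 and pandas 2.3.3 were used.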

Additional observations from a re-analysis of the deposited data

How the results depend on the processing

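Of 27 log2 ratios of the 4 genes under other settings, all were above 0 and 20 lay within the range of the value as reported. Many of these 20 could hardly differ, so their count is no measure of stability. The pseudocounts are small beside these levels, and no assembled transcript joined genes. TC002990 has only its reference transcript, and TC016203 only its assembled one above 0. Centring on the median gave 1.07 for TC000542, 1.05 for TC000403, 0.89 for TC002990 and 0.67 for TC016203. For TC000542 the reference transcript alone, which also has the highest mean FPKM, gave 1.42, and weighting by length 1.09. TC016203 has no value by its reference transcript, listed at 0. By reference transcripts alone 1222 genes were called higher, and 2 of the 7 central carbon enzymes. A fold threshold of 2 called 438 genes higher and 718 lower, 0 of the 4 genes and 1 of the 7 enzymes higher. With a mean of at least 5 FPKM, 1 of the 7 was called lower, since pyruvate kinase and citrate synthase are left out. Leaving out transcripts without a strand, chosen after the data were seen, gave 717 genes higher and 1149 lower. With 1 library per condition, no replicate could be left out. No paired analysis was possible because a single pair of libraries leaves no spread between pairs.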
